A study of Rattus norvegicus with 32 samples.

Results

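The genes described here are Cldn5, Ocln, Pecam1, Tie1, Tek, Flt1, Slco1a4, Abcb1a, Slc2a1 and Mfsd2a, 10 genes of the vessel wall and the blood-brain barrier that were chosen by name. Of the 10 names, 9 matched 1 of the 28914 gene names in the count files, and Pecam1 was not analysed here. They were measured by RNA-seq of rRNA-depleted total RNA in 4 brain regions, the SVZ (subventricular zone), the NAc (nucleus accumbens) and, from the hippocampus, the CA (Ammon's horn) and the DG (dentate gyrus), of adult male Sprague-Dawley rats. The METH groups received 4 intraperitoneal injections of methamphetamine hydrochloride at 10 mg/kg, spaced 2 h apart, the saline groups (Sal) received the vehicle on the same schedule, and the regions were dissected 24 h later than the final dose. Each region had 4 Sal and 4 METH samples, 32 in all, named here by region, treatment and replicate. No allele or second agent is given in the labels. The labels do not say whether the 4 samples of a group came from separate animals, so the p-values measure the spread between these samples, which may be technical. By the study's methods all 4 regions were cut from each brain, and the file headers repeat library numbers between the NAc, DG and CA, so samples of different regions can come from 1 rat. The fits over several regions treat them as independent. Every sample is a piece of tissue with all its cell types, so that fewer endothelial cells and less RNA per endothelial cell cannot be told apart.

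The blood-brain barrier is formed by the endothelial cells of brain capillaries, which are sealed to each other by tight junctions, take up few vesicles and carry nutrients and drugs across the wall through dedicated transporters. Pericytes and astrocyte endfeet surround these cells and help to keep the barrier closed. Cldn5 is the main claudin of brain endothelial tight junctions and Ocln (occludin) is another junction protein, made by many epithelia as well. Tie1 and Tek (Tie2) are receptors of the angiopoietin pathway that steadies vessels, and Flt1 is a receptor for vascular endothelial growth factor. Slco1a4 carries organic anions, Abcb1a is the drug efflux pump P-glycoprotein, Slc2a1 (Glut1) carries glucose, and Mfsd2a carries lysophosphatidylcholine lipids and restrains vesicle transport.

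The promoters of 4 of these genes are shown because Tie1, Flt1, Slco1a4 and Cldn5 varied together between samples, as described further on. Each is the 250 bases before the start of the gene in the RefSeq annotation of the GRCr8 build, written 5' to 3' on the strand of the gene. Capitals mark AGGAAG or its reverse complement CTTCCT, a core of the sites of ETS factors, the family that includes the endothelial regulators Erg and Fli1. The windows lie at chr5:137304982-137305231 on the minus strand for Tie1, chr12:12333180-12333429 on the plus strand for Flt1, chr4:176495847-176496096 on the minus strand for Slco1a4 and chr11:95718599-95718848 on the minus strand for Cldn5.
Tie1: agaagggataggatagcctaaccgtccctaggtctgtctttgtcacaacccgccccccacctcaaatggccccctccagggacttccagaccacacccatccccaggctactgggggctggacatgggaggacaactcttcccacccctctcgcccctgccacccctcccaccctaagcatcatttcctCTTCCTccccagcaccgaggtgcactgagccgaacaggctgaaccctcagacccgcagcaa
Flt1: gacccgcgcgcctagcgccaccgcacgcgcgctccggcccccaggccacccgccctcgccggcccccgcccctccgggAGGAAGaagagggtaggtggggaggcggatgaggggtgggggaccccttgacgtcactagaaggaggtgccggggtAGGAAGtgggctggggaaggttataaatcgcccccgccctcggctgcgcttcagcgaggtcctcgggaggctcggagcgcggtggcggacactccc
Slco1a4: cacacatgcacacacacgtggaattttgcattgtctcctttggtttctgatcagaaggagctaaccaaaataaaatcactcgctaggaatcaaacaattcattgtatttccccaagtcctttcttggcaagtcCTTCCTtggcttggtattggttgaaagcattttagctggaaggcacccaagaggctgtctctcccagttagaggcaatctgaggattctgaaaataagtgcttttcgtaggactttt
Cldn5: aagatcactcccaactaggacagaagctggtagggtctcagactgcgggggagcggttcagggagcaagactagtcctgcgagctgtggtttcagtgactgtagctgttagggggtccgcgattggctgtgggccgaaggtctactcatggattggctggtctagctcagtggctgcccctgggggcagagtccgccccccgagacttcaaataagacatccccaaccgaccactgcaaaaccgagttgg

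A window was found by gene symbol for 7 of the 9 genes, the others being Tek and Mfsd2a. AGGAAG was present on either strand in 3 of the 7 windows, once in Tie1, 2 times in Flt1 and once in Slco1a4, and in 29.4% of all 27457 promoter windows of the same length. The other ETS core searched, CCGGAA, was in 0 of the 7 and in 13.4% of all. The FOX letters TGTTTAC were in 0 of the 7 against 3.25% of all, and the TCF/LEF letters CTTTGA in 0 of the 7 against 13.8%. The SOX letters ACAATG were in Slco1a4 only, 1 of 7 against 10.9%, and TATAAA in Flt1 only, 1 of 7 against 13.1%. Each motif was searched on both strands and none of the searched motifs overlapped another in these windows. A match is a run of letters and not a measured site.

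The total count per sample ranged from 11094002 to 21869773. Marker genes did not place every library in its labelled region. The summed level of 8 dentate granule neuron genes was 75.2 to 647 CPM (counts scaled to the size of the library) in the DG and 177 to 666 CPM in the CA, and that of 8 CA pyramidal neuron genes 503 to 1670 CPM in the DG and 750 to 1170 CPM in the CA, so these sums did not separate the DG from the CA. The summed level of 8 striatal neuron genes was 214 CPM in NAc METH 3 against 1270 to 6120 CPM in the other NAc libraries, and 1470 CPM in DG Sal 3 against 96.5 to 321 CPM in the other DG libraries. The same sum was 159 to 695 CPM in SVZ Sal 1, SVZ METH 2 and SVZ METH 4 and 1230 to 4810 CPM in the other SVZ libraries. The summed level of 11 choroid plexus genes was above 1000 CPM in DG Sal 4, DG METH 3, CA Sal 2 and SVZ METH 3, and at most 424 CPM in the others. The endothelial label itself was checked with 18 genes of endothelial adhesion and identity, of which 17 had a row and 1, Robo4, was at 0 in every library. All other genes of that list that had a row were detected, with summed levels of 99.8 CPM in SVZ METH 4 to 347 CPM in DG Sal 2.

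Cldn5 needed a second source. Its whole 1425-base transcribed region (rn6, chr11:86356294-86357718, minus strand) lies within exons of Cdc45 on the plus strand, and it stood at 0 in all 32 per-sample count files. In the count matrix that the authors deposited for the whole series it had 171 to 592 counts per sample, so Cldn5 was taken from that matrix throughout. Of 938 genes whose exons overlap a gene on the other strand, 452 (48.188%) had more counts in the matrix than in the per-sample files, against 64 of 13663 others (0.468%). The study's methods list featureCounts options with none for strand, and do not say which of these counts they gave. Whether the matrix assigned reads by strand is therefore not known, so reads of Cdc45 and Cldn5 cannot be told apart by these files alone. Abcb1a has a related limit. Its row (rn6, chr4:22133521-22425515, minus strand) joins 3 separate blocks of 29, 28 and 33 exons, and its neighbours Abcb4 and Abcb1b have no row of their own, so its value may hold reads of related genes. The other members lie on rn6 at chr2:30527715-30577218 (Ocln, minus strand), chr5:137294544-137321121 (Tie1, minus), chr5:113725717-113852799 (Tek, plus), chr12:9034308-9205905 (Flt1, plus), chr4:175969549-176026163 (Slco1a4, minus), chr5:138154673-138182897 (Slc2a1, plus) and chr5:140642885-140657745 (Mfsd2a, minus), and each value is a count over all exons of the gene.

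Compared per kilobase of exon, the transporter Slc2a1 had the highest level over the 32 samples, 35.1 ± 5.09 CPM per kb (mean ± SD), and Cldn5 the next, 16.8 ± 4.16 CPM per kb. Slco1a4 stood at 8.45 ± 1.95, Mfsd2a at 7.59 ± 2.13 and Flt1 at 6.67 ± 2.17 CPM per kb. These 3 levels lay within 1 SD of each other. Abcb1a at 3.27 ± 0.802, Tek at 2.9 ± 0.671, Tie1 at 2.36 ± 0.687 and Ocln at 2.19 ± 0.783 CPM per kb closed the order. The place of Abcb1a rests on the 14132 exon bases of its 3 joined blocks. Slc2a1 was also the steadiest in CPM, with a highest sample (NAc Sal 1) 1.9-fold above the lowest (DG METH 4), and Flt1 the most variable by this ratio, 3.91-fold between DG Sal 2 and SVZ METH 1.

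**Figure D1:**
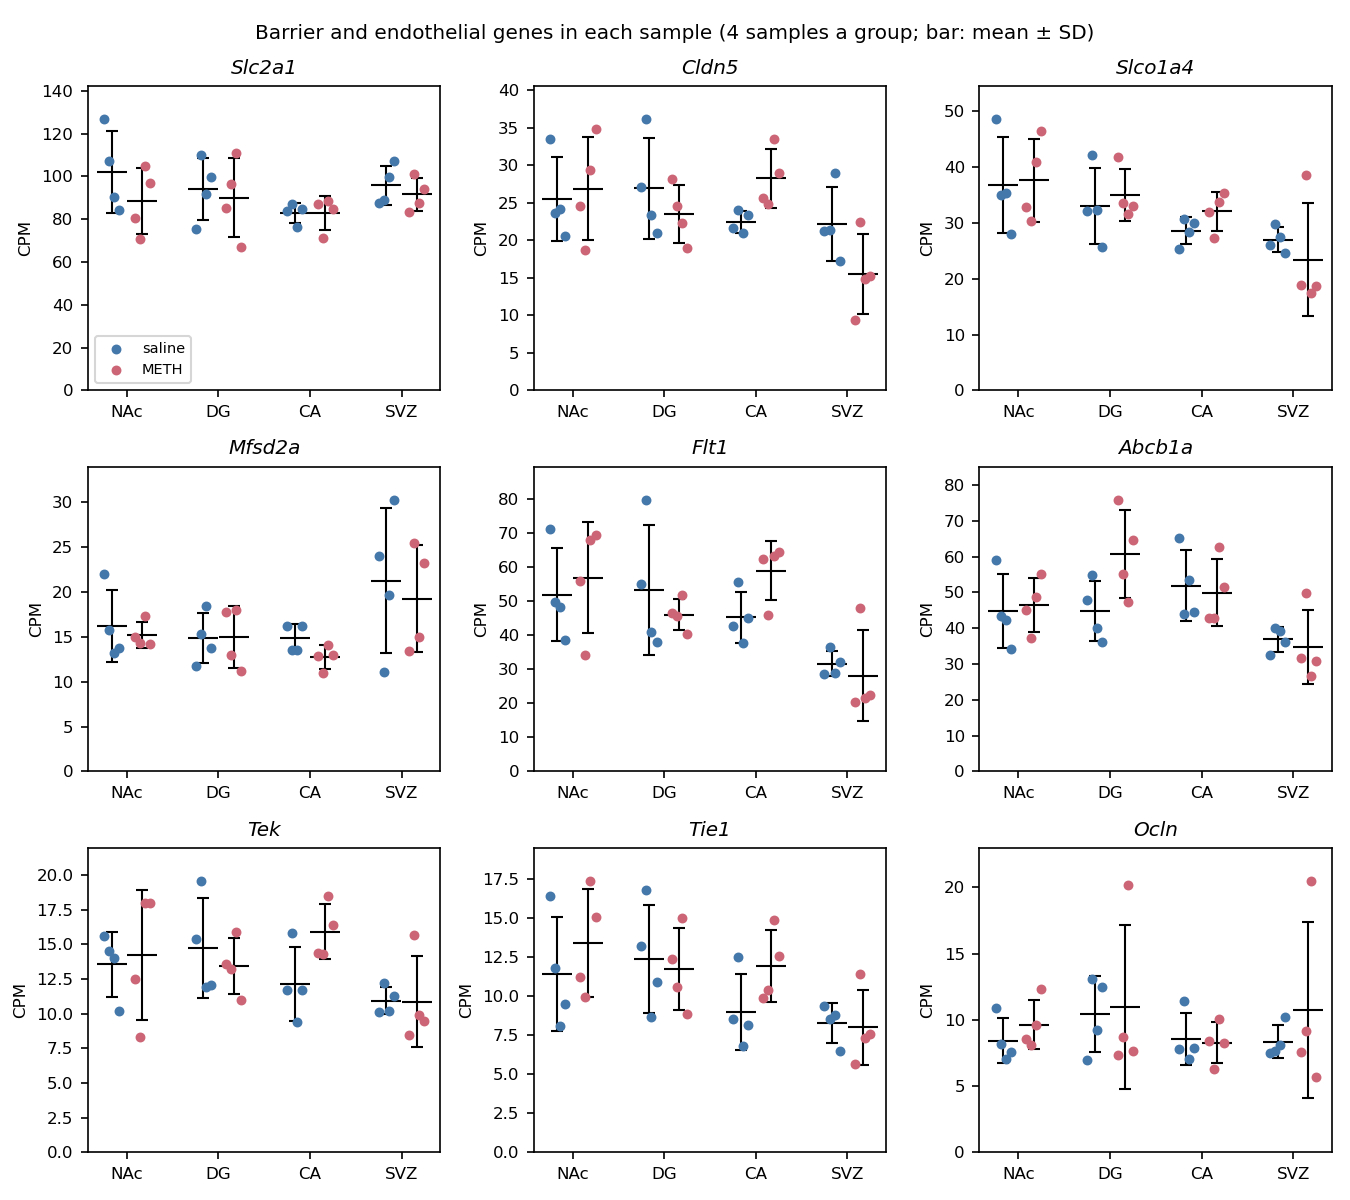
The level of each of the 9 genes in CPM (vertical axis, from 0) in the 4 samples of each region and treatment, one panel a gene, with points for samples and bars for the mean and SD. Flt1 in the SVZ was at 28.6 to 36.5 CPM in Sal and at 20.4 to 48.0 CPM in METH, and no METH group in any panel passed the test.

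The saline samples were compared first to see whether these genes differ between the 4 regions without drug. No gene of the 9 passed the threshold (edgeR's quasi-likelihood F test over regions, adjusted p below 0.01), nor did any of the 15515 genes tested (0%). At unadjusted p below 0.05 there were 2 of the 9, Flt1 and Slco1a4, against a background of 26.7% of all genes, so the share among these genes was no higher than among all. The count was 0 of 9 without SVZ Sal 1 or without SVZ Sal 3. Flt1 was at 71.1, 49.6, 48.3 and 38.7 CPM in NAc Sal, at 54.9, 79.8, 40.8 and 38.0 CPM in DG Sal, at 42.6, 55.6, 37.8 and 44.9 CPM in CA Sal and at 28.6, 36.5, 28.9 and 32.2 CPM in SVZ Sal. All 4 SVZ samples were below all samples of the other regions, whose ranges overlapped each other, and 0.552% of all genes had their 4 SVZ samples below the rest in this way. All 8 SVZ libraries have their own name pattern and number series in the file headers, with no other region in it, so the SVZ and its set of libraries cannot be told apart in any contrast with the other regions. Flt1 in the SVZ differed from the mean of the other 3 regions by -0.63 ± 0.18 (log2 fold change ± SE, adjusted p = 0.0584 in edgeR), a fold of 0.646 with a 95% interval of 0.494 to 0.845. In this comparison 25.4% of all genes had an unadjusted p below 0.05, as Flt1 had. None of the 9 genes passed an adjusted p of 0.01 with a fold above 2 in any region against the other 3, which 0% of all genes did in the NAc and in the DG, 0.264% in the CA and 0.0645% in the SVZ.

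Slco1a4 was at 48.7, 35.1, 35.3 and 28.0 CPM in NAc Sal, at 32.1, 42.1, 32.3 and 25.7 CPM in DG Sal, at 25.3, 30.8, 28.4 and 30.0 CPM in CA Sal and at 26.0, 29.9, 27.4 and 24.7 CPM in SVZ Sal. The ranges of all 4 regions overlapped, with the 3 highest samples in the NAc and DG. Its difference of the NAc from the other 3 regions was 0.33 ± 0.12 (adjusted p = 0.247 in edgeR, with an unadjusted p below 0.05 that 15% of all genes had). Mfsd2a had its highest mean in SVZ Sal (21.3 ± 8.08 CPM, n = 4) and means of 14.8 to 16.2 CPM in the other saline groups. The SVZ samples of Mfsd2a were spread from 11.1 to 30.3 CPM and overlapped every other region, and the difference of 0.51 ± 0.2 had an adjusted p of 0.134 in edgeR. Slc2a1 in the CA differed from the other 3 regions by -0.26 ± 0.11 (adjusted p = 0.165), where 25.7% of all genes had an unadjusted p below 0.05, and Abcb1a in the SVZ differed by -0.32 ± 0.14 (adjusted p = 0.168). Cldn5, Ocln, Tie1 and Tek had no region with an unadjusted p below 0.05 against the mean of the others (background 6.78% in the DG), and their mean levels in saline ran in the order DG, NAc, CA, SVZ for Cldn5, Tie1 and Tek. For these 3 genes the ranges of every pair of regions overlapped, and the pairs with an unadjusted p below 0.05 were the DG against the SVZ for Tie1 (0.54 ± 0.24, adjusted p = 0.26) and for Tek (0.39 ± 0.18, adjusted p = 0.283). In this pair 17.6% of all genes had an unadjusted p below 0.05 and 0.0193% passed an adjusted p of 0.01 with a fold above 2.

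The question of the study was how binge METH alters each region. With edgeR after removal of unwanted variation estimated from residuals (RUVr), it reported changed genes in every region. Its thresholds were an adjusted p below 0.01 and a fold above 2. Here METH was compared with saline within each region without that step. The call was at an adjusted p below 0.01 and a fold above 1.5, with a looser count at an unadjusted p below 0.05. None of the 9 genes was called in any region, and none of the 14612 to 15579 genes tested per region was called either (0% in the NAc, DG, CA and SVZ). At unadjusted p below 0.05 there were 0 of 9 in the NAc (background 3.39% of all genes), 1 of 9 in the DG (12.8%), 3 of 9 in the CA (7.16%) and 0 of 9 in the SVZ (2.58%). The lowest adjusted p of the 9 genes was 0.999 in the NAc, 0.303 in the DG, 0.65 in the CA and 0.969 in the SVZ.

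**Figure D2:**
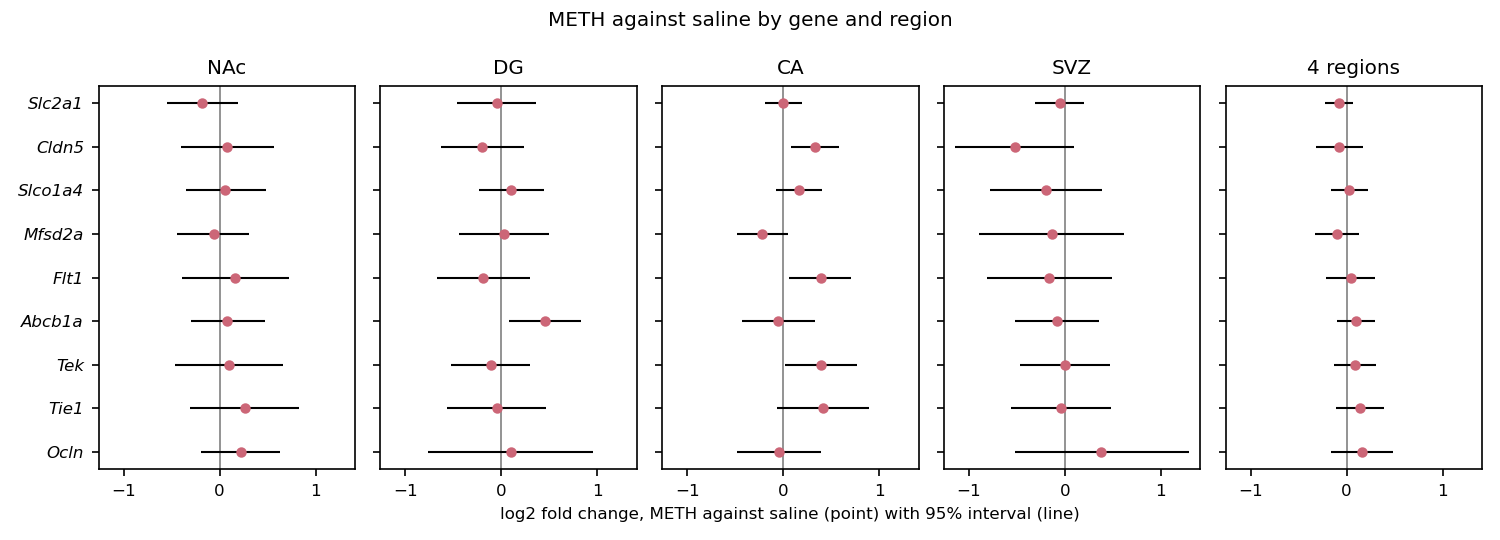
The log2 fold change of METH against saline for each gene (vertical axis) in the NAc, DG, CA and SVZ (4 samples a group) and over the 4 regions together (16 samples a group), with points for estimates and lines for 95% intervals. The interval lies above 0 for Abcb1a in the DG (0.08 to 0.83) and for Cldn5 (0.08 to 0.58), Flt1 (0.06 to 0.71) and Tek (0.02 to 0.77) in the CA, before adjustment, and spans 0 elsewhere.

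In the CA, Cldn5, Flt1, Tek and Tie1 had their largest positive estimates of the 4 regions. Cldn5 was at 21.6, 24, 20.9 and 23.3 CPM in CA Sal and at 25.6, 24.8, 33.5 and 29 CPM in CA METH. The 4 METH samples were all above the 4 saline samples, a separation that 4.31% of all genes showed in this region in either direction. Its log2 fold change was 0.33 ± 0.11 (SE), a fold of 1.26 with a 95% interval of 1.06 to 1.49 (adjusted p = 0.65 in edgeR; 7.31% of the genes in the matrix had an unadjusted p below 0.05). Flt1 was at 42.6, 55.6, 37.8 and 44.9 CPM in saline and at 62.4, 45.9, 63.1 and 64.5 CPM in METH. For this receptor 3 METH samples were above every saline sample and CA METH 2 lay within the saline range, with a log2 fold change of 0.39 ± 0.14 (adjusted p = 0.669). Tek was at 11.7, 15.8, 9.44 and 11.7 CPM in saline and at 14.4, 14.3, 18.5 and 16.4 CPM in METH, and CA Sal 2 was the saline sample inside the METH range. Its log2 fold change was 0.39 ± 0.17 (adjusted p = 0.688), and that of its partner receptor Tie1 was 0.42 ± 0.21 (adjusted p = 0.713, with an unadjusted p above 0.05).

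The transporters had estimates nearer to 0 in the CA, a contrast with the receptors that was not tested. The log2 fold change was 0.17 ± 0.1 for Slco1a4, -0.05 ± 0.17 for Abcb1a, 0.0011 ± 0.09 for Slc2a1 and -0.22 ± 0.12 for Mfsd2a, none with an unadjusted p below 0.05. The 95% interval of Slc2a1 in the CA ran from a fold of 0.874 to 1.15. CA Sal 2 is the saline library with a choroid plexus sum of 2410 CPM, and without it Cldn5, Flt1, Tek and Tie1 all had an unadjusted p below 0.05, with log2 fold changes of 0.36, 0.5, 0.55 and 0.62 and adjusted p of 0.453 to 0.485 in edgeR. In one fit of all 32 samples, which shares the spread between regions, the estimates were the same to 2 decimals and 0 of the 4 had an unadjusted p below 0.05. Leaving out each CA library in turn gave 1 to 4 genes at this level, with Cldn5 among them each time and as the only one without CA Sal 1, CA Sal 3, CA METH 3 or CA METH 4. The share of all genes at this level ranged from 4.2% without CA Sal 1 to 11% without CA METH 1. It was 8.98% without CA Sal 2 and 5.21% without CA METH 2, the omissions that gave 4 genes.

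Other endothelial genes were read in the same 8 CA libraries, so their values are not independent of those above. Of the 18 listed genes of endothelial adhesion and identity, 16 were tested in the CA, 15 had an estimate above 0 and 7 had an unadjusted p below 0.05, all with higher METH means, while 4.37% of all genes were higher at that level. The median log2 fold change of the list was 0.43 against 0.01 for all genes tested, and none of the list was called. The 7 were Nos3, the endothelial nitric oxide synthase (0.82 ± 0.16, adjusted p = 0.482 in edgeR), Itm2a (0.45), the TGF-beta co-receptor Eng (0.59), the clotting factor carrier Vwf (0.48), Mmrn2 (0.48), the junction protein Esam (0.42) and the sialomucin Podxl (0.44). The count of 7 ranged from 4 in one fit of all 32 samples to 10 with 4 factors of unwanted variation taken from the residuals, and from 5 to 9 when each CA library was left out in turn. In the DG, NAc and SVZ the list had 0, 2 and 0 genes higher at that level (background 6.35%, 2.42% and 1.19% of all genes). In these regions 2, 14 and 5 of the 16 estimates were above 0, with medians of -0.13, 0.22 and -0.14, so most were above 0 in the NAc as well. The DG median was 0.16, with 11 of 16 above 0 in place of 2, when the library set named in the headers was a covariate, a fit in which DG Sal 3 alone is set against DG METH 1 and DG METH 2. It was 0.02 without replicates 1 and 2 and 0.01 without DG Sal 2, and the NAc median ranged from 0.08 without NAc Sal 4 to 0.39 without NAc Sal 1. The summed pericyte markers in the CA were at 154 to 194 CPM in saline and at 180 to 248 CPM in METH, with all 11 estimates above 0 and 2 at unadjusted p below 0.05. The smooth muscle markers were at 34.4 to 49 CPM in saline and 47.4 to 69.2 CPM in METH, with all 6 tested genes above 0, a median of 0.72 and 2 at this level. The astrocyte markers were at 4080 to 5220 CPM in saline and 4780 to 5840 CPM in METH, with 10 of 10 above 0 and 2 at this level, and the microglia markers had 8 of 9 above 0 and 1 at this level. The striatal genes had 8 of 8 estimates above 0 with a median of 0.77 and 1 at this level, and the dentate granule genes had 1 of 6 above 0 with a median of -0.9 and 2 lower at this level. All 7 tested choroid plexus genes were below 0, with a median of -2.41, and none of the marker genes was called. The fibroblast and meninges markers had 7 of 9 above 0, a median of 0.51 and 1 at this level, and the general neuron markers 3 of 10 above 0 and 1 lower at this level. The summed oligodendrocyte markers were at 3390 to 7370 CPM in saline and 2580 to 9170 CPM in METH, with 0 of 9 above 0 and a median of -0.34. The part of these cell types in the result was not tested.

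In the DG, Abcb1a, whose value may hold reads of Abcb4 and Abcb1b, alone had an unadjusted p below 0.05. It was at 48.0, 54.8, 40.1 and 36.0 CPM in DG Sal and at 75.9, 55.2, 47.2 and 64.7 CPM in DG METH. DG METH 3 lay inside the saline range and the other 3 METH samples above it. The log2 fold change was 0.46 ± 0.16, a fold of 1.37 with a 95% interval of 1.06 to 1.78 (adjusted p = 0.303 in edgeR). The unadjusted p was above 0.05 when DG Sal 3, DG Sal 4, DG METH 1 or DG METH 4 was left out, and the estimate ranged from 0.34 to 0.56 over all 8 omissions. The header library numbers of replicates 1 and 2 are crossed between Sal and METH in the DG relative to the NAc and CA, and without these 4 libraries Abcb1a was at 0.54 ± 0.21, no smaller than with all 8, with an unadjusted p above 0.05 at 2 samples a group. Markers of other cell types were read in the same groups, and none of them was called. At unadjusted p below 0.05, 6.35% of all genes were higher in the DG and 12.8% differed in either direction. The dentate granule genes had 6 of 6 estimates above 0 in the DG with a median of 1.25 and 1 at unadjusted p below 0.05 (75.2 to 395 CPM in saline and 115 to 647 CPM in METH, summed), and the striatal genes 0 of 8 above 0 with a median of -2.16 and 1 at this level (133 to 1470 CPM and 96.5 to 321 CPM). Both sums overlapped between the treatments. The astrocyte sum did not, at 3460 to 4730 CPM in saline and 4880 to 5320 CPM in METH, with 8 of 10 genes above 0 and 2 at this level. The microglia markers had 9 of 9 above 0 and 1 at this level, and the CA pyramidal genes 4 of 6 above 0 with a median of 0.63 and 1 at this level. The choroid plexus genes had 8 of 9 above 0 (median 1.22), the ependymal genes 7 of 8 (median 0.19) and the pericyte markers 3 of 11 (median -0.2). None of the genes in these last lists was at this level. Over the 32 samples Abcb1a had an r of 0.52 with the pericyte sum, 0.51 with the astrocyte sum, 0.42 with the general neuron sum, -0.4 with the choroid plexus sum and 0.35 with the dentate granule sum, after removal of group means. Their part in the result was not tested. The other 8 genes had DG estimates from -0.2 ± 0.19 (Cldn5) to 0.1 ± 0.38 (Ocln). That of Cldn5 was -0.02 without DG Sal 2 and -0.3 without DG Sal 4.

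In the SVZ 1 library, SVZ METH 2, lay apart from the other METH samples in several of these genes. Flt1 was at 28.6, 36.5, 28.9 and 32.2 CPM in SVZ Sal and at 20.4, 48.0, 21.5 and 22.4 CPM in SVZ METH. Slco1a4 was at 26.0, 29.9, 27.4 and 24.7 CPM in saline and at 18.9, 38.6, 17.5 and 18.7 CPM in METH. In both genes 3 METH samples were below every saline sample and SVZ METH 2 was above all of them. Cldn5 was at 21.2, 21.3, 29 and 17.3 CPM in saline and at 9.37, 22.4, 14.9 and 15.2 CPM in METH, with the same 3 METH samples below the saline range and SVZ METH 2 within it. With all 8 libraries the log2 fold changes were -0.16 ± 0.28 for Flt1, -0.2 ± 0.25 for Slco1a4 and -0.52 ± 0.27 for Cldn5 (adjusted p = 0.969 in edgeR). Abcb1a was at 32.4, 40.1, 39.2 and 36.0 CPM in saline and at 31.6, 49.7, 26.7 and 30.9 CPM in METH, again with SVZ METH 2 as the highest of the 8. Between the same SVZ groups the oligodendrocyte markers had 9 of 9 estimates above 0 (median 0.82) and the choroid plexus genes 10 of 10 (median 2.91). The striatal genes had 0 of 8 above 0 (median -1.25). None of the genes in these lists had an unadjusted p below 0.05, and their part in the result was not tested.

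Without SVZ METH 2, a library singled out after its values were seen, 4 of the 9 genes had an unadjusted p below 0.05, all lower in METH, against 1.47% of all genes. The log2 fold change was then -0.54 ± 0.11 for Slco1a4, -0.54 ± 0.13 for Flt1, -0.76 ± 0.24 for Cldn5 and -0.29 ± 0.12 for Abcb1a, each with an adjusted p of 1 in edgeR. Leaving out any other SVZ library gave 0 of 9. SVZ METH 2 is among the libraries low in striatal genes (159 CPM) and high in oligodendrocyte genes (27700 CPM, against 4200 to 20200 CPM in saline and 9150 to 29100 CPM in METH). It also had the highest sum of the endothelial identity list in the SVZ (176 CPM, against 99.8 to 115 CPM in the other METH and 126 to 162 CPM in the saline libraries) and of the pericyte markers (225 CPM, against 143 to 177 CPM in the other 7). The part of these differences in the result was not tested. Without all 3 SVZ libraries low in striatal genes, which leaves 3 Sal and 2 METH, the same 4 genes had an unadjusted p below 0.05 (background 6.73%), with log2 fold changes of -0.57, -0.61, -0.9 and -0.38 for Slco1a4, Flt1, Cldn5 and Abcb1a and adjusted p of 0.649 to 0.682 in edgeR. Both exclusions leave the same SVZ METH 1 and SVZ METH 3, so they are not separate evidence, and SVZ METH 3 had a choroid plexus sum of 8400 CPM. In the file headers SVZ METH 1 and SVZ METH 2 carry 1 library number, and so do SVZ METH 3 and SVZ METH 4, so the 4 METH samples may come from 2 animals, and SVZ METH 2 shares its number with a library that lay on the other side of saline for Flt1 and Slco1a4. With libraries of one number summed the log2 fold changes were -0.22 ± 0.2 for Slco1a4, -0.18 ± 0.21 for Flt1, -0.53 ± 0.22 for Cldn5 and -0.1 ± 0.18 for Abcb1a, each with an adjusted p of 1 in edgeR and an unadjusted p above 0.05.

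Tek had the same arrangement as Flt1 and Slco1a4 at a smaller distance. It was at 10.1, 12.2, 10.2 and 11.3 CPM in SVZ Sal and at 8.46, 15.7, 9.91 and 9.46 CPM in SVZ METH. Tie1 was at 6.47 to 9.37 CPM in saline and at 11.4 CPM in SVZ METH 2, above all 4 saline samples, against 5.69 to 7.61 CPM in the other METH samples. Slc2a1 was at 87.6 to 107.0 CPM in saline and at 83.2 to 101.0 CPM in METH, with a log2 fold change of -0.05 ± 0.11 and a 95% interval from a fold of 0.809 to 1.15. Mfsd2a ranged from 11.1 to 30.3 CPM in saline and from 13.4 to 25.5 CPM in METH, so that its interval was wide, from 0.539 to 1.54. The estimates were -0.04 ± 0.23 for Tie1 and 0.00068 ± 0.21 for Tek, and without SVZ METH 2 they were -0.25 ± 0.19 and -0.22 ± 0.15, with neither unadjusted p below 0.05.

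In the NAc the 9 estimates ran from -0.18 ± 0.16 for Slc2a1 to 0.26 ± 0.25 for Tie1, with 7 above 0 and a median of 0.08 against 0.03 for all genes. The SEs of 0.16 to 0.25 show the precision there, and the intervals of Flt1 (fold of 0.761 to 1.64) and Cldn5 (0.755 to 1.48) leave room for changes of that size in either direction. NAc Sal 1 was the highest of the 4 saline samples for all 9 genes, for example Slc2a1 at 127.0 CPM against 84.2 to 107.0 CPM and Flt1 at 71.1 CPM against 38.7 to 49.6 CPM. Without it the log2 fold change was 0.46 ± 0.23 for Tie1, 0.35 ± 0.17 for Ocln (0.22 with all libraries), 0.33 ± 0.24 for Flt1 and -0.08 ± 0.16 for Slc2a1, and 0 of 9 had an unadjusted p below 0.05. Other omissions lowered the estimates, to 0.1 for Tie1 without NAc METH 3, 0.08 for Ocln without NAc METH 4 and 0.04 for Flt1 without NAc Sal 4. The fibroblast and meninges markers had 7 of 8 NAc estimates above 0, a median of 1.04 and 4 higher at unadjusted p below 0.05 (background 2.42%). It was 6 of 6 above 0 and 1 at this level for smooth muscle, 9 of 10 and 2 for astrocytes and 7 of 9 and 3 for microglia. The striatal genes had 0 of 8 above 0 with a median of -0.69. No marker gene was called, and their part in the result was not tested.

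Over the 4 regions together, with a term for region and 16 samples a treatment, the estimates of the 9 genes lay between -0.1 and 0.16. None was called (0% of 16122 genes) and 0 of 9 had an unadjusted p below 0.05 against 7.45% of all genes. The glucose transporter Slc2a1 had the narrowest interval, a fold of 0.859 to 1.05, and the tight junction gene Ocln the widest, 0.895 to 1.4. The intervals of the other 7 genes lay between folds of 0.796 and 1.31. The header library numbers of replicates 1 and 2 are crossed between Sal and METH in the DG relative to the NAc and CA. If a number stands for a rat, this fit and the interaction below set samples of that rat under both treatments.

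Whether the METH effect differed between regions was tested as an interaction. None of the 9 genes passed (edgeR's F test, adjusted p below 0.01; 0% of all genes), and 0 of 9 had an unadjusted p below 0.05 against 7.74% of all genes. Cldn5 had the lowest p of the 9. The estimated METH effect on Cldn5 was higher in the CA than in the SVZ by 0.86 ± 0.31 on the log2 scale (adjusted p = 0.968 in edgeR; its unadjusted p was below 0.05, as for 3.79% of all genes in this pair). Without SVZ METH 2 the F test gave an unadjusted p below 0.05 for 4 of the 9 genes, Cldn5, Slco1a4, Flt1 and Abcb1a, with adjusted p of 0.458 to 0.652 in edgeR and a background of 6.97%. Cldn5 alone also had an unadjusted p below 0.05 without NAc Sal 1, NAc METH 2, DG Sal 4, DG METH 1 or SVZ Sal 4, with adjusted p of 0.568 to 0.813. The background in these omissions was 5.9% to 7.67% of all genes.

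Beyond the group means, most of these genes varied together. After the mean of each region and treatment was removed from log2(CPM + 1), the 36 pairs of the 9 genes had a median Pearson r of 0.56 over the 32 samples, from -0.13 for Abcb1a with Ocln to 0.92 for Flt1 with Tek. Of these pairs, 20 were above 0.5. All points share their library, so common factors such as depth and tissue composition enter every r. Against the mean of the other members the r was 0.89 for Flt1, 0.87 for Tek, 0.82 for Cldn5, 0.82 for Tie1, 0.78 for Slco1a4 and 0.72 for Slc2a1. It was lower for Abcb1a (0.57), Mfsd2a (0.4) and Ocln (0.31). By Spearman's rank correlation these values were 0.5 for Abcb1a, 0.43 for Mfsd2a and 0.49 for Ocln.

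**Figure D3:**
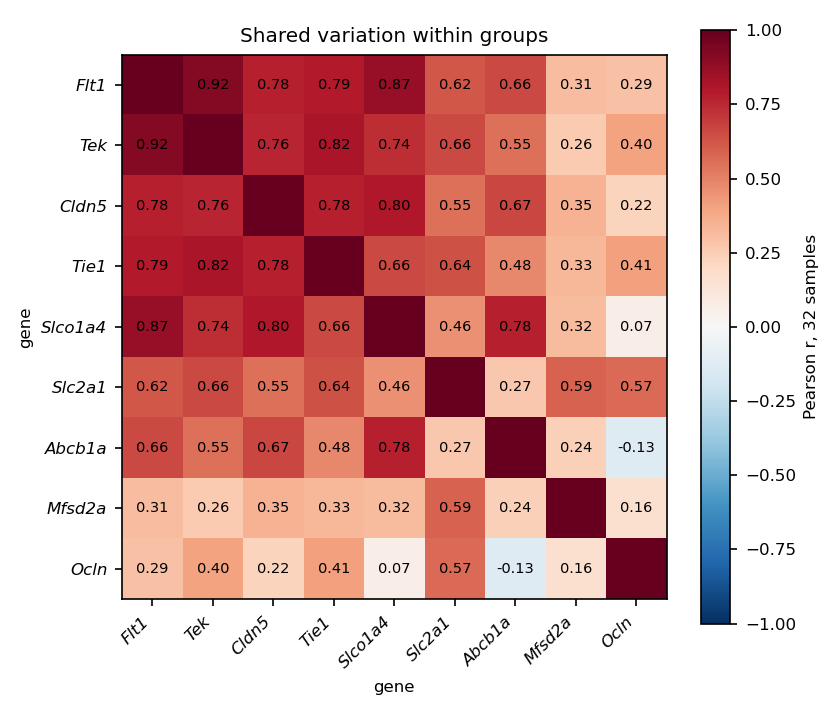
Pearson r between each pair of the 9 genes (both axes) over 32 samples, on log2(CPM + 1) less the mean of each region and treatment, with the color and the printed number giving r. Flt1, Tek, Cldn5, Tie1 and Slco1a4 form the darkest block, with r from 0.66 to 0.92, while Ocln and Mfsd2a are pale against most others.

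Of 16114 other genes, the 10 most like the mean of the members in this measure were Rgs5 (r of 0.93), Adgrf5 (0.89), Esam (0.88), Vwf (0.84), Nos3 (0.84), Thsd1 (0.83), Cdh5 (0.81), Akr1c15 (0.81), Adgrl4 (0.8) and Mecom (0.8). Rgs5 is a marker of pericytes, and Esam, Vwf, Nos3, Cdh5 (VE-cadherin) and Adgrl4 were on the list of endothelial identity. Only 24 genes had an r above 0.7, while the median of all genes was 0.01. The list of endothelial adhesion and identity had a median r of 0.7, the smooth muscle markers 0.57, the barrier transporters other than the members 0.38, the astrocyte markers 0.3, the oligodendrocyte markers 0.29 and the pericyte markers, which include Rgs5, 0.26 (from -0.01 to 0.93). The striatal, dentate granule and CA pyramidal neuron markers had medians of -0.12, -0.13 and -0.32.

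The genes least like the others, Ocln and Mfsd2a, had a higher r with markers of other cell types. Ocln had an r of 0.69 with the summed choroid plexus markers, 0.66 with those of fibroblasts and meninges and 0.64 with those of erythrocytes, on the same scale and over the same 32 samples. It was at 20.2 CPM in DG METH 3 and 20.5 CPM in SVZ METH 3, the libraries with the highest choroid plexus sums (6560 and 8400 CPM), and at 5.71 to 13.1 CPM in all other libraries. Without the 4 libraries high in choroid plexus genes the log2 fold change of Ocln went from 0.1 to -0.28 in the DG, from -0.04 to 0.13 in the CA and from 0.38 to -0.16 in the SVZ, and none of these passed the test. Mfsd2a and Slc2a1 each had an r of 0.56 with the oligodendrocyte sum, and Mfsd2a was at 24, 25.5 and 23.2 CPM in the 3 SVZ libraries richest in oligodendrocyte genes. The pericyte sum had an r of 0.7 with Slco1a4, 0.67 with Tie1 and 0.61 with Tek. The part of these cell types in any difference between groups was not tested.

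**Figure D4:**
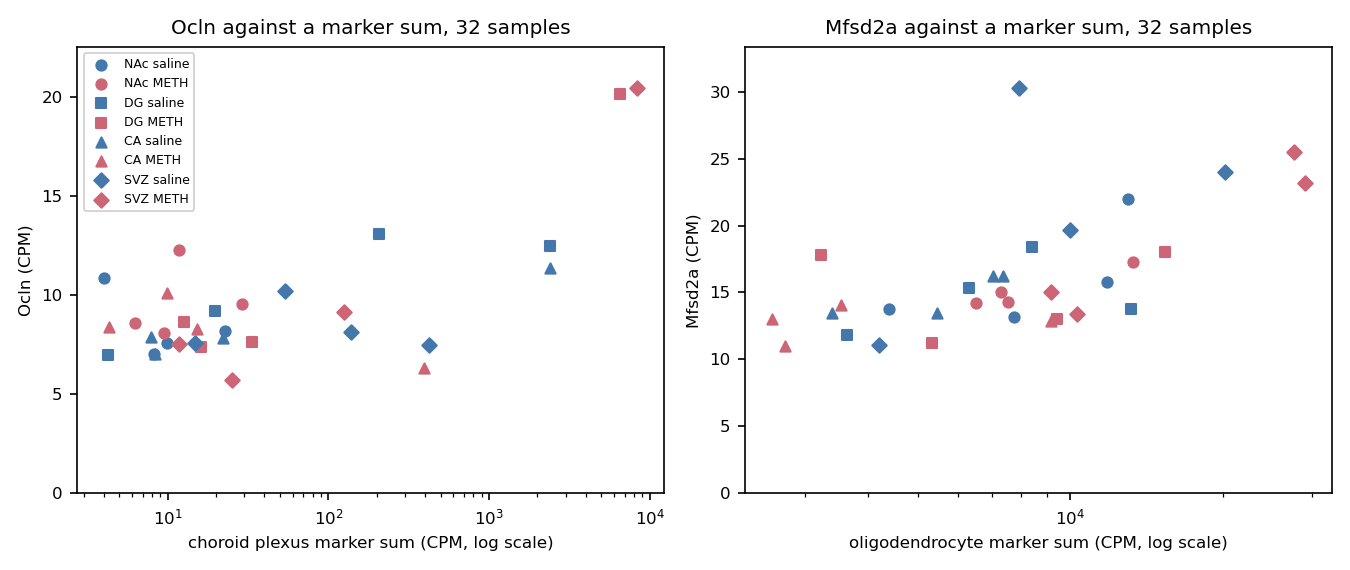
Ocln against the summed level of 11 choroid plexus genes, and Mfsd2a against that of 9 oligodendrocyte genes, both in CPM with a log horizontal axis, one point for each of 32 samples. Ocln stands at 20.2 and 20.5 CPM in the 2 samples farthest right, and Mfsd2a at 23.2 to 25.5 CPM in the 3 richest in oligodendrocyte genes, while its highest sample, SVZ Sal 4 at 30.3 CPM, has a sum of 7940 CPM.

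The wider pathways of the barrier were examined with 11 lists that hold 139 tested genes, the members included and each gene counted once. Over the 4 regions together none was called, and 9 had an unadjusted p below 0.05 with higher METH means and 3 with lower, 8.63% of the 139 against 7.45% of all genes (4.1% higher and 3.35% lower). The list medians ran from 0.0 to 0.14 against 0.01 for all genes. In Wnt signalling of the barrier, 2 of 18 were at this level and both were higher, Tspan12, the co-receptor of norrin signalling (0.3 ± 0.07, adjusted p = 0.223 in edgeR), and the ligand Wnt7b (0.38 ± 0.16, adjusted p = 0.619), with Foxq1 next (0.43 ± 0.23, adjusted p = 0.692). By region Tspan12 was at 0.37 in the NAc, 0.27 in the DG, 0.56 in the CA and 0.03 in the SVZ. Of the 22 barrier transporters tested, 3 were higher and 0 lower, the thyroid hormone carrier Slco1c1 (0.33 ± 0.12), the glutamine carrier Slc38a5 (0.62 ± 0.23) and the large amino acid carrier Slc7a5 (0.15 ± 0.07), all with adjusted p of 0.585 to 0.653 in edgeR. Slco1c1 had its estimate mainly in the NAc (0.48) and CA (0.54), regions where Slc2a1 was at -0.18 and 0.0011.

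Of the 16 tight junction genes 1 was higher, Lsr, a protein of tricellular junctions (0.24 ± 0.08, adjusted p = 0.523), and 0 were lower, with Cldn1 at 0.96 ± 0.61 and Cldn12 at -0.12 ± 0.08 next. Of the 10 VEGF ligands and receptors 0 were higher and 1 lower, the ligand of the Flt1 receptor Vegfa (-0.19 ± 0.06, adjusted p = 0.567), followed by Vegfb (0.17 ± 0.11) and Nrp1 (0.24 ± 0.21). By region Nrp1 was at 1.39 in the DG, where its unadjusted p was below 0.05, and at -0.18 in the NAc, -0.3 in the CA and 0.11 in the SVZ. In the angiopoietin and Tie list 0 of 7 were at this level, with Angpt4 at 0.32 ± 0.2, Angpt2 at 0.22 ± 0.16 and Tie1 at 0.14 ± 0.12 the lowest p. Of 14 hypoxia and glycolysis targets, which include Slc2a1, 2 were lower and 0 higher, Ankrd37 (-0.52 ± 0.18, adjusted p = 0.565) and Vegfa, with P4ha1 at 0.1 ± 0.05. The endothelial identity list had 1 of 16 higher, Ramp2 (0.36 ± 0.16, adjusted p = 0.624), ahead of Cd34 (-0.48 ± 0.29) and Nostrin (0.18 ± 0.12). The caveolae list had 1 of 6 higher, Cav2 (0.27 ± 0.12, adjusted p = 0.619), ahead of Cavin2 (-0.2 ± 0.2) and Cav1 (0.08 ± 0.08). The transcription factors had 1 of 22 lower, Ets2 (-0.35 ± 0.17, adjusted p = 0.653), ahead of Epas1 (0.14 ± 0.07) and Foxq1. The matrix metalloproteinases and their inhibitors had 1 of 9 higher, Timp1 (0.6 ± 0.22, adjusted p = 0.588), ahead of Timp4 (0.35 ± 0.21) and Mmp2 (0.33 ± 0.26). The leukocyte adhesion list had 0 of 5 at this level, with Icam1 at 0.1 ± 0.13, Lrg1 at 0.23 ± 0.33 and Selplg at 0.06 ± 0.11, and the other 6 of its 11 listed genes were not tested.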

How the data were processed

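Whole-gene read counts of 32 RNA-seq libraries were used as deposited by the authors. Per the labels and the submitters' processing notes, reads were trimmed with cutadapt 2.7, checked with FastQC 0.11.4, aligned to rn6 with STAR 2.5.2b and counted with featureCounts 1.6.3, and no replicates were pooled. Each per-sample file gives the count and the exon length of 28914 genes. The matrix the authors deposited holds counts of 14714 genes and served for Cldn5.

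Counts were tested with edgeR 4.0.16 (R 4.3.3; quasi-likelihood test, upper-quartile normalization, filterByExpr, Benjamini-Hochberg adjustment over all genes tested). A call needed an adjusted p below 0.01 and a fold above 1.5 between treatments, or above 2 between regions. Each region was fitted on its 8 samples, the interaction and the 4 regions together on 32, and the region differences on the 16 saline samples. Levels are CPM on upper-quartile library sizes. The script was tested on simulated data. Correlations used Pearson's r with a pseudocount of 1. DESeq2 1.42.0, TMM, other filters, a replicate block, RUVr factors, the library set named in the headers and omission of each library were alternatives.

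The named genes were the members, the 3 lowest p of each pathway list and the 10 genes most like the members. The other genes of endothelial identity named in the CA were chosen after their values were seen, for an unadjusted p below 0.05. Members and lists were chosen with earlier results of these data known. Pairs of replicates within a group differed by 16.4 to 191.0 in chi-square per degree of freedom, so none was a copy of another.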

Additional observations from a re-analysis of the deposited data

Results flagged for a closer look

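A sample was set apart where its gap to the nearest other sample of its group took up a larger share of the range than Dixon's 95% critical value for 4 samples. This was so in 4 of the 72 groups examined (9 genes in 8 groups), and chance gives about 1 in 20. The gap over the range was 0.934 for Slco1a4 in SVZ METH 2 (38.6 CPM) and 0.928 for Flt1 in the same library (48.0 CPM). It was 0.899 for Ocln in DG METH 3 (20.2 CPM), the DG library with a choroid plexus sum of 6560 CPM. It was 0.887 for Flt1 in CA METH 2 (45.9 CPM), the lowest of the 4 CA METH samples.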

How the results depend on the processing

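No gene of the 9 was called under any of the 184 alternatives run for the 7 comparisons. The lowest adjusted p in any setting was 0.0128, for Flt1 in the SVZ against the other saline regions with DESeq2. DESeq2 was not run for the F tests over several coefficients. Reversed signs were found in 88 of 1129 alternative estimates of METH against saline, none of them called and none beyond 0.4 in size, and the cause was not tested.

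The library names in the headers fall into sets, and all SVZ libraries form 1 set. In the CA, Sal 3 shares a set with METH 3 and 4, and Sal 4 with METH 1 and 2, while the set of Sal 1 and 2 holds no METH library. Within the NAc only 1 set (Sal 3 and 4, METH 1 and 2) holds both treatments, and within the DG only 1 (Sal 3, METH 1 and 2). A fit with the set as a covariate therefore rests on 1 saline library in the DG. In that fit the log2 fold change was -0.05 for Cldn5, -0.2 for Tek and 0.13 for Mfsd2a in the NAc, 0.17 for Cldn5, -0.22 for Ocln, 0.39 for Tie1, 0.15 for Tek, 0.15 for Flt1 and -0.28 for Mfsd2a in the DG, and 0.15 for Ocln and 0.02 for Abcb1a in the CA. Without DG replicates 1 and 2 of both treatments it was 0.28 for Tie1, 0.15 for Tek, 0.21 for Flt1 and -0.15 for Mfsd2a. Without the libraries high in choroid plexus genes it was -0.28 for Ocln and -0.1 for Mfsd2a in the DG, 0.13 for Ocln in the CA, -0.16 for Ocln and 0.02 for Abcb1a in the SVZ and -0.01 for Ocln over the 4 regions. With RUVr, Ocln in the DG was -0.01 with 1 factor and -0.0018 with 2. Tek in the SVZ was -0.01 with DESeq2, without a filter on low counts, with the word EXTRA in the library name as a covariate and in one fit of 32 samples, -0.004 with a filter at CPM above 1, -0.02 with 1, 2 or 4 RUVr factors and with libraries of one number summed, and -0.27 without the libraries low in striatal genes. Slc2a1 in the CA was -0.01 with TMM and with DESeq2, -0.0025 with the CPM filter and -0.0035 in the matrix. Over the 4 regions together, Cldn5 was 0.07 without the SVZ, Tek -0.01, Flt1 -0.07 and Slco1a4 -0.02 without the CA, and Abcb1a -0.02 without the DG.

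The number of members with an unadjusted p below 0.05 was 2 in place of 0 in the NAc with 4 RUVr factors, 0 in place of 1 in the DG with the library set and without replicates 1 and 2 (Abcb1a at 0.68 and 0.54 against 0.46 with all libraries), 0 in place of 3 in the CA in one fit of 32 samples, and 1 in place of 0 in the SVZ with 1 or 4 RUVr factors and in one fit of 32 samples. In the saline regions it was 1 in place of 2 with TMM and without a filter on low counts. The share of all genes at this level is not given for these settings, so these counts cannot be set against a background.

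Same-numbered samples did not deviate together (r of -0.77 to 0.4 over the 4 regions, with 1 to 3 of 4 pairs above 0.1), so the numbers were not taken as pairing. With the replicate block, 1 member (Cldn5, adjusted p = 0.61) in place of 3 had an unadjusted p below 0.05 in the CA, and the estimates of Ocln in the DG (-0.01), Tek in the SVZ (-0.03) and Slc2a1 in the CA (-0.0023) changed sign. For the block, too, the share of all genes at this level is not given. In the saline samples 0 to 1 of 4 were most like the METH sample of their own number in each region.

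Leaving out each library in turn moved the estimates from -0.07 to 0.24 for Cldn5 in the NAc, -0.16 to 0.13 for Ocln in the CA, -0.4 to 0.25 in the DG and -0.16 to 0.59 in the SVZ, -0.21 to 0.11 for Tie1 in the DG and -0.25 to 0.09 in the SVZ, -0.04 to 0.27 for Tek in the NAc, -0.21 to 0.03 in the DG and -0.22 to 0.1 in the SVZ, -0.3 to 0.05 for Flt1 in the DG and -0.03 to 0.11 over the 4 regions, -0.05 to 0.21 for Slco1a4 in the NAc and -0.03 to 0.06 over the 4 regions, -0.03 to 0.22 for Abcb1a in the NAc, -0.19 to 0.08 in the CA and -0.29 to 0.02 in the SVZ, -0.18 to 0.07 for Slc2a1 in the DG, -0.04 to 0.07 in the CA and -0.11 to 0.02 in the SVZ, and -0.16 to 0.09 for Mfsd2a in the NAc, -0.08 to 0.17 in the DG and -0.35 to 0.1 in the SVZ. With counts of 79 to 2412 per library and 4 libraries a group, a fold of 1.5 lay inside the 95% interval of several genes in each region, so smaller differences may have been missed. Larger ones may have been missed as well. In the simulated data 2-fold changes were recovered for 1% of the changed genes in the SVZ, 10.1% in the DG, 29.9% in the NAc and 50% in the CA. For 4-fold changes the share recovered by calls was 44.9% in the SVZ and 86.7% in the CA.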
